A study of Rattus with 6 samples.

Results

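The autophagy and lysosome machinery is the set of proteins that wraps cell material in a membrane, the autophagosome, and breaks it down in the acid interior of the lysosome. Its genes were followed here in rat bone marrow mesenchymal stem cells (BMSC), the stromal cells of marrow that can form bone, fat and cartilage. Genes were chosen by symbol: those starting with Atg and a digit, Gabarap, Map1lc3 or Atp6v, the cathepsins with a single-letter name, Lamp genes with a single digit, Wipi1, Wipi2, Ulk1, Ulk2, Ulk3, Becn1, Sqstm1, Tfeb, Tfe3 and Mcoln1. The rule found 76 of the 30211 genes in the deposited count table. All 6 samples were labelled as wild-type BMSC from bone and were collected on day 4. The 3 control samples were cultured without dexamethasone and the 3 others with 100 uM dexamethasone, a synthetic glucocorticoid. The labels do not say whether the 3 samples of a group came from separate animals or cultures, and p-values therefore cover only the variation among these 6 libraries, part or all of which may be technical. Nor do they give the rats' strain or age, or whether the controls received vehicle.

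Autophagy starts when the ULK kinases and the lipid kinase complex around beclin 1 mark a site on a membrane. ATG9 and ATG2 proteins supply lipid to it, and a chain of ubiquitin-like enzymes attaches the small ATG8 proteins (the LC3 and GABARAP families) to the growing sheet, where they hold cargo receptors such as the Sqstm1 product. After fusion with the lysosome, cathepsins digest the content at the low pH that the V-ATPase proton pump sets, and the transcription factors TFEB and TFE3 are known to switch on many genes of the pathway when nutrients are short.

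Library totals ranged from 34835072 to 41676315 counts, and genes of the set took 0.583% to 0.595% of the counts in the controls and 0.631% to 0.643% with dexamethasone. Replicates lay close together, and the common biological coefficient of variation was 3.66%. All 6 glucocorticoid receptor targets examined as a check of the labels rose with dexamethasone, among them Fkbp5 (log2 change 4.30). All 15 marrow stromal markers had counts, with a summed level of 7777 to 7895 CPM (counts relative to library size, scaled between libraries by TMM) in the controls and 8324 to 8553 CPM with dexamethasone. That sum was led by the collagen gene Col3a1, which rose from a mean of 1996 to 4347 CPM, and single markers moved widely: 6 of the 15 rose and 8 fell. Prrx1, a transcription factor of limb and marrow stroma, fell from 727 to 75.6 CPM (log2 -3.27), and the growth factor receptor gene Pdgfrb from 616 to 137 CPM (log2 -2.17), while its relative Pdgfra rose from 598 to 965 CPM (log2 0.69). The part of such shifts in the results on autophagy and lysosome genes was not tested. In bulk RNA, fewer cells of a type and less RNA per cell cannot be told apart.

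Of the 76 genes, 63 had enough counts to be tested. With dexamethasone 20 of them rose, 23 fell and the remaining 20 missed the threshold, at an adjusted p below 0.05 (edgeR's quasi-likelihood test, Benjamini-Hochberg adjustment over all 14111 tested genes). The share called, 68.3%, stands beside 64.0% of all tested genes, the 31.7% that rose beside 32.3%, and the 36.5% that fell beside 31.7%. The median size of the log2 change was 0.31 over the 63 genes and 0.31 over all tested genes. Their log2 changes ran from -1.65 (Ctsw) to 1.47 (Atp6v1e2), against -10.92 to 13.64 over all genes. Both ends are genes with few reads that passed the filter on low counts only through the group where they were higher. Next to them came Ulk3 (-1.19) and Lamp2 (1.08). Tested against a fold change of 1.5 in place of no change, 8 of the 63 (12.7%) passed, beside 20.0% of all tested genes. Those 8 were Lamp2, Ctsh and Ctsz, which rose, and Sqstm1, Ulk3, Atg4c, Map1lc3a and Ctsw, which fell. The call of Ctsw rests on few reads.

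**Figure D1:**
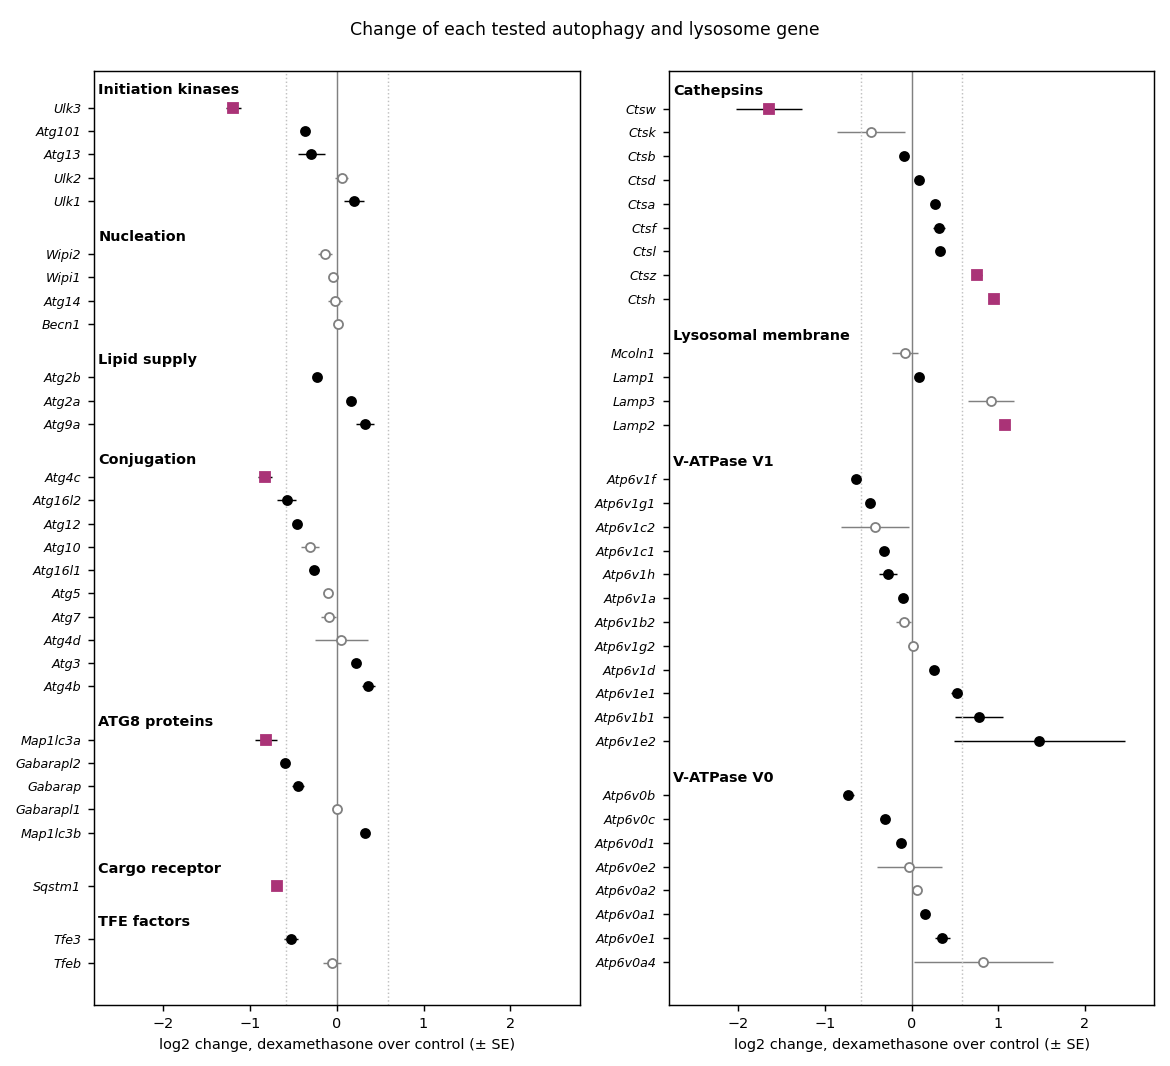
Log2 change with dexamethasone over control (x axis) for each of the 63 tested genes, grouped by role (y axis), with bars for the standard error over 3 and 3 libraries. Filled black points passed at an adjusted p below 0.05, purple squares also passed against a fold change of 1.5, open grey points did not pass, and dotted lines mark 1.5-fold. Lamp2 (1.08) and Ctsh (0.95) lie farthest right among the squares and Ctsw (-1.65) and Ulk3 (-1.19) farthest left. Ctsw passed the filter on low counts through the control group alone.

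Of the 5 initiation genes 3 fell, 1 rose and 1 did not pass. The share called among these few genes, 80%, stands beside 64.0% of all tested genes. Ulk3 alone passed against a fold change of 1.5. It encodes the more distant relative of the kinase ULK1. Ulk3 (chromosome 8, 62368998 to 62374504) had 3.11, 3.55 and 3.10 CPM in the controls against 1.45, 1.30 and 1.5 CPM with dexamethasone. The groups did not overlap, and the level was 2.29-fold lower with dexamethasone (log2 change -1.19 ± 0.086 SE, adjusted p = 1.8e-07). Ulk1, which encodes the kinase that starts autophagosome formation, had 11.1, 14.6 and 12.3 CPM against 14.8, 14.4 and 14.5 CPM. Control replicate 2 lay inside the dexamethasone range, and the small rise (log2 0.20 ± 0.11, adjusted p = 0.033) lost its call on leaving out control replicate 1 (adjusted p = 0.262) or 3 (0.11) or dexamethasone replicate 1 (0.0726) or 3 (0.0618), and by DESeq2 (0.108). Ulk2, the close relative of Ulk1, did not pass (log2 0.06, adjusted p = 0.42). Atg101, a partner of the ULK kinases, fell from 56.0, 58.4 and 60.3 to 44.3, 45.0 and 46.5 CPM (log2 -0.36 ± 0.037, adjusted p = 9.8e-10). Atg13, the other partner, also fell (log2 -0.29, adjusted p = 0.028) with overlapping groups, a call lost without control replicate 2 (0.315), without dexamethasone replicate 1 (0.0706) or 2 (0.126), with library size alone (0.0575) and by DESeq2 (0.0961). Per length of exon, the sum of the 3 ULK genes was 9.64 ± 0.23 RPKM in the controls and 9.16 ± 0.40 RPKM with dexamethasone (SD, n = 3), and the share of Ulk3 in it went from 19.5% to 8.94%.

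None of the 4 genes of the nucleation step passed edgeR's test, which 64.0% of all tested genes passed, and neither did any by DESeq2 or limma-voom. At an unadjusted p below 0.05 the count was 1 (Wipi2) by edgeR and limma-voom and 0 by DESeq2. Becn1, which encodes beclin 1, the scaffold of the lipid kinase complex, had 211, 201 and 209 CPM in the controls against 214, 201 and 211 CPM with dexamethasone. The ranges overlapped almost wholly, and the log2 change was 0.02 ± 0.035 (adjusted p = 0.68). Atg14, which directs that complex to the autophagosome, had a log2 change of -0.02, and Wipi1 and Wipi2, which bind the lipid it makes, had -0.04 and -0.14 (adjusted p of 0.82, 0.42 and 0.059). Wipi2 did pass when control replicate 1 (adjusted p = 0.0193) or dexamethasone replicate 3 (0.0297) was left out and with the replicate number as a block (0.0467). Exons of Wipi1 overlap those of Arsg over 651 bases, so reads of the overlap may belong to either.

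Lipid supply genes moved apart. Atg2b and Atg2a encode closely related lipid transfer proteins. Atg2b fell from 72.1, 71.9 and 71.1 to 61.8, 58.1 and 63.0 CPM (log2 -0.23 ± 0.036, adjusted p = 2.0e-06). Atg2a rose from 22.5, 22.5 and 22.8 to 26.3, 25.0 and 24.5 CPM (log2 0.16 ± 0.031, adjusted p = 0.018), a call lost without dexamethasone replicate 1 (0.0765) and by DESeq2 (0.0516). The share of Atg2a in their summed RPKM was 32.5% ± 0.35 in the controls and 38.7% ± 1.28 with dexamethasone (SD, n = 3). Atg9a, the lipid scramblase of the autophagosome precursor, rose by 0.32 on the log2 scale (adjusted p = 5.6e-04). Its relative Atg9b had only 16 and 29 counts in all, was not tested, and overlaps Nos3.

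Of the 10 conjugation genes 2 rose, 4 fell and 4 missed the threshold. The 60% called lay near the 64.0% of all tested genes, of which 32.3% rose and 31.7% fell. The E1-like enzyme gene Atg7 (log2 -0.10, adjusted p = 0.48), Atg5 (-0.10, adjusted p = 0.070), Atg10 (-0.31, adjusted p = 0.098) and Atg4d (0.05, adjusted p = 0.84) were those that did not pass. Atg12, the ubiquitin-like protein joined to ATG5, fell from 39.5, 39.2 and 40.8 to 27.7, 28.6 and 30.5 CPM (log2 -0.46 ± 0.044, adjusted p = 2.1e-10). Its scaffold genes Atg16l1 (log2 -0.26) and Atg16l2 (log2 -0.58) fell too, while Atg3, the E2-like enzyme that loads ATG8 proteins onto lipid, rose from 158, 154 and 157 to 176, 183 and 186 CPM (log2 0.22).

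The ATG4 proteases, which trim ATG8 proteins before use and release them from lipid afterwards, shifted within the family. Atg4c (chromosome 5, 117877594 to 117931003) had 12.4, 12.9 and 11.7 CPM in the controls against 7.23, 6.30 and 7.29 CPM with dexamethasone. Without overlap between the groups, it was 1.78-fold lower (log2 -0.83 ± 0.080, adjusted p = 1.1e-10, and 0.0070 against a fold change of 1.5). Atg4b, regarded as the main member, rose from 18.7, 19.0 and 21.3 to 26.8, 23.9 and 25.2 CPM (log2 0.36 ± 0.077, adjusted p = 4.6e-06). Their summed level per length, with Atg4d, was 23.9 ± 1.01 RPKM in the controls and 23.8 ± 1.64 RPKM with dexamethasone (SD, n = 3). The rule found no gene under the symbol Atg4a, so the sum and the shares leave that family member out. Of that sum Atg4b made up 56.4% ± 1.78 in the controls and 72.9% ± 1.01 with dexamethasone, and Atg4c 37.9% ± 3.27 and 21.3% ± 0.86. These shares are descriptions and were not tested.

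Among the 5 ATG8 genes there was 1 rise and 3 falls, and 1 gene was level. The share called among these few genes, 80%, stands beside 64.0% of all tested genes. Map1lc3b (chromosome 19, 53629779 to 53646058) encodes the LC3 form most used as an autophagosome marker. It had 221, 219 and 221 CPM in the controls against 284, 273 and 274 CPM with dexamethasone, a rise of 1.26-fold with no overlap (log2 0.33 ± 0.019, adjusted p = 1.0e-13). Map1lc3a (chromosome 3, 150801289 to 150802935), its close relative, went the other way, from 5.86, 7.20 and 7.90 to 3.81, 4.00 and 4.09 CPM (log2 -0.82 ± 0.13, adjusted p = 1.8e-07, and 0.046 against a fold change of 1.5). The lowest control library still lay above every dexamethasone library.

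The GABARAP branch of the family was lower or level. Gabarapl2 (chromosome 19, 44164935 to 44175770) fell from 26.5, 27.5 and 27.1 to 18.6, 17.3 and 17.7 CPM (log2 -0.60 ± 0.035, adjusted p = 1.7e-11). Gabarap fell from 30.6, 30.8 and 31.0 to 23.1, 20.4 and 23.9 CPM (log2 -0.45 ± 0.070, adjusted p = 1.1e-08). Gabarapl1 had 115, 111 and 108 CPM in the controls against 112, 109 and 114 CPM with dexamethasone, overlapping groups with a log2 change of 0.00 ± 0.034 (adjusted p = 0.92). Per length, the 5 genes summed to 247 ± 0.77 RPKM in the controls and 259 ± 6.11 RPKM with dexamethasone (SD, n = 3). Within that sum the share of Map1lc3b went from 48.4% ± 0.26 to 58.0% ± 0.89, while those of Gabarap (15.1% to 10.5%), Gabarapl2 (6.87% to 4.32%) and Map1lc3a (2.91% to 1.58%) were smaller. The ATG8 genes are similar to each other, and the treatment of reads that match several of them is not stated in the labels.

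**Figure D2:**
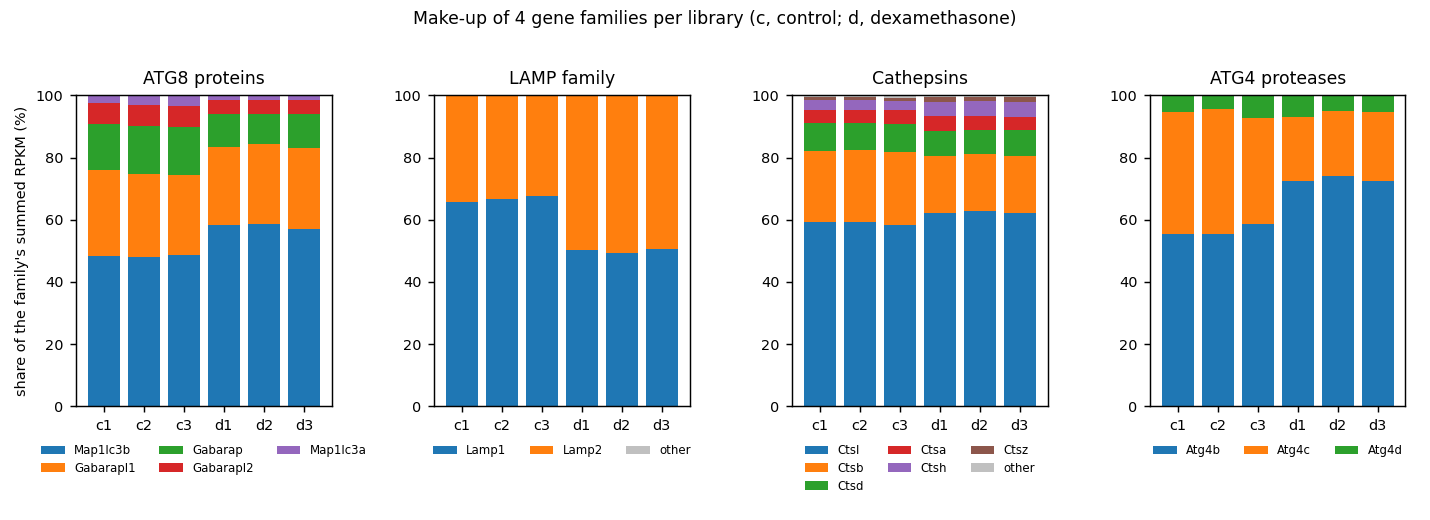
Share of each gene in the summed RPKM of its family (y axis, percent) in control libraries c1 to c3 and dexamethasone libraries d1 to d3 (x axis), for the ATG8, LAMP, cathepsin and ATG4 families. Atg4a, which the rule did not find, is missing from the last. Genes under 1% in every library are pooled as other. In the dexamethasone libraries Lamp2 takes 49.6% of its family, against 33.1% in the controls, and Map1lc3b 58.0% against 48.4%.

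Sqstm1, which encodes the cargo receptor sequestosome-1 that links ubiquitin-tagged material to ATG8 proteins, was the gene of the set with the largest loss in counts. Its level (chromosome 10, 35704730 to 35716294) was 620, 587 and 609 CPM in the controls against 367, 374 and 385 CPM with dexamethasone. The groups were far apart, and the gene was 1.61-fold lower with dexamethasone (log2 -0.69 ± 0.030, adjusted p = 1.2e-25, and 2.3e-04 against a fold change of 1.5). Its exons overlap Mrnip over 47 bases, but Mrnip had only 808 counts over all libraries.

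Among the cargo receptors outside the rule, 4 of 14 tested rose and 7 fell, so that 78.6% were called. Over all tested genes 64.0% were called, with 32.3% rising and 31.7% falling. Bnip3, a receptor for mitochondria, rose from 93.2 ± 0.887 to 255 ± 5.60 CPM (SD, n = 3; log2 1.45, adjusted p = 8.1e-36). Its close relative Bnip3l fell from 186 ± 3.92 to 147 ± 2.42 CPM (log2 -0.34, adjusted p = 3.7e-13). Tax1bp1, a receptor of the same ubiquitin-binding kind as Sqstm1, rose from 771 ± 13.9 to 1045 ± 17.8 CPM (log2 0.44). Nbr1, the partner of the Sqstm1 protein, fell from 367 ± 7.68 to 279 ± 7.08 CPM (log2 -0.40), and Tex264, a receptor for endoplasmic reticulum, fell by 0.59 on the log2 scale. Bnip3 was the member of this list that passed against a fold change of 1.5.

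The 2 transcription factors of the set differed. Tfeb had 3.63, 4.23 and 4.27 CPM in the controls against 4.24, 3.86 and 3.60 CPM with dexamethasone, overlapping groups with a log2 change of -0.05 ± 0.10 (adjusted p = 0.76). Tfe3 (chromosome X, 15575934 to 15587419) fell from 18.7, 19.4 and 21.0 to 13.5, 14.9 and 12.7 CPM, with no overlap (log2 -0.53 ± 0.083, adjusted p = 3.4e-08). Per length Tfe3 was the more abundant in every library, at a mean of 11.5 RPKM against 1.72 RPKM for Tfeb in the controls. The difference between their changes was not tested.

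Most tested cathepsins were higher with dexamethasone: of the 9, 6 rose and 2 fell. The share called was 88.9%, beside 64.0% of all tested genes, of which 32.3% rose and 31.7% fell. The median log2 change of the 9 was 0.27 beside -0.00 over all tested genes. Ctsk and Ctsw, both below 1 CPM, are among the 9, and Ctsw, 1 of the 2 falls, passed the low-count filter through the control group alone. Ctsh (chromosome 8, 97439161 to 97458287), which encodes a cysteine protease that trims proteins from the amino end, had 71.5, 68.9 and 67.3 CPM in the controls. With dexamethasone it had 132, 131 and 137 CPM, 1.93-fold higher with no overlap (log2 0.95 ± 0.032, adjusted p = 1.1e-26, and 4.0e-13 against a fold change of 1.5). Ctsz (chromosome 3, 172527107 to 172537877), a carboxypeptidase, rose from 16.6, 17.8 and 17.2 to 30.3, 26.9 and 29.3 CPM (log2 0.75 ± 0.058, adjusted p = 3.9e-14). These 2 were the cathepsins that rose past a fold change of 1.5.

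The abundant cathepsins changed less. Ctsl (chromosome 17, 1872848 to 1879279), a broad cysteine protease and per length the highest gene of the set, rose from 1288, 1282 and 1272 to 1619, 1607 and 1610 CPM (log2 0.33 ± 0.0062, adjusted p = 1.3e-16). Ctsb, the next cysteine protease, had 581, 592 and 606 CPM in the controls against 556, 558 and 560 CPM with dexamethasone. That fall was small (log2 -0.09 ± 0.018, adjusted p = 0.0025) and was not called when libraries were scaled by size alone (adjusted p = 0.072). Ctsd, the main aspartic protease of lysosomes, rose from 246, 237 and 246 to 265, 248 and 260 CPM (log2 0.09 ± 0.034, adjusted p = 0.011), a call lost without control replicate 2 (0.0772) or dexamethasone replicate 1 (0.0608). Ctsa, a carboxypeptidase that also protects other lysosomal enzymes (log2 0.27), and Ctsf (log2 0.32) rose. Exons of Ctsa overlap Neurl2 and Pltp over 220 bases in all. The cathepsins together summed to 1323 ± 5.03 RPKM in the controls and 1572 ± 11.2 RPKM with dexamethasone (SD, n = 3), 1.19 times the control level, and Ctsl made up 58.9% and 62.4% of it.

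Cathepsins typical of blood cells and bone-resorbing cells were near or at 0. Ctsk, the collagen-degrading protease of osteoclasts, had 0.545, 0.329 and 0.850 CPM in the controls against 0.498, 0.425 and 0.320 CPM with dexamethasone, and did not pass (log2 -0.47 ± 0.40, adjusted p = 0.30). Ctsw, known from cytotoxic lymphocytes, fell from 0.441, 0.684 and 0.950 to 0.284, 0.142 and 0.222 CPM (82 counts in all against 26, log2 -1.65 ± 0.38, adjusted p = 7.3e-04, and 0.011 against a fold change of 1.5). It passed the filter on low counts through the control group alone, and its call rests on few reads. Ctss, the protease of antigen-presenting cells (10 control and 7 dexamethasone counts), Ctsc (9 and 24) and Ctse (2 and 2) were not tested. Ctsg and the placental cathepsins Ctsj, Ctsm, Ctsq and Ctsr were at 0 throughout, a count that leaves room for levels up to 0.170 CPM in the shallowest library. The latter 4 lie on chromosome 17, as does Ctsl.

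Marker lists of other cells that make cathepsins were low. The 23 macrophage markers summed to 28.4 to 30.7 CPM in the controls and 27.7 to 30.3 CPM with dexamethasone, most of it Fcgr2a, and 8 of them, Adgre1, Cd163 and C1qa among these, had 0 counts. Of the 9 tested macrophage markers, 1 rose, Fcgr2a itself, and 5 fell, with a median log2 change of -1.25 over the 9. The 12 osteoclast markers, which include Ctsk and Atp6v0d2, summed to 54.3 to 58.1 CPM against 23.9 to 28.1 CPM. Acp5, Tnfrsf11a, Dcstamp and Ocstamp had 0 counts. Of the 5 tested osteoclast markers 60% were called, beside 64.0% of all tested genes. Mmp9 fell from 31.7 to 0.296 CPM and Nfatc1 from 3.66 to 0.462 CPM. Tcirg1 rose from 18.6 to 23.5 CPM and made up most of the sum with dexamethasone. The 13 granulocyte markers summed to 0.279 to 0.525 CPM in the controls and 0.443 to 0.681 CPM with dexamethasone, with 7 at 0, Mpo and Elane among these. The 13 lymphocyte markers, Ctsw included, summed to 0.648 to 1.25 CPM and 0.255 to 0.542 CPM, with Cd3d, Cd3g, Cd79a, Cd79b and Nkg7 at 0. The part of such cells in the fall of Ctsw was not tested. The 7 endothelial markers in the table summed to 7.37 to 8.04 CPM and 5.14 to 6.11 CPM.

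Lamp2 (chromosome X, 124722628 to 124766044), which encodes a glycoprotein that lines the lysosomal membrane and serves in fusion and in chaperone-mediated autophagy, had the largest rise of the set among genes above 1 CPM. It had 53.8, 50.5 and 49.7 CPM in the controls against 106, 110 and 109 CPM with dexamethasone. The groups stood far apart, and the gene was 2.12-fold higher with dexamethasone (log2 1.08 ± 0.038, adjusted p = 1.5e-27, and 2.1e-16 against a fold change of 1.5). Lamp1 (chromosome 16, 81689335 to 81714419), the other main lysosomal glycoprotein, had 240, 233 and 241 CPM in the controls against 249, 249 and 259 CPM with dexamethasone. Its rise was only 0.08 ± 0.025 on the log2 scale (adjusted p = 0.011) and was not called without control replicate 2 (0.0722) or dexamethasone replicate 3 (0.0767). Per length, Lamp2 stood at 29.4 RPKM against 59.3 RPKM for Lamp1 in the controls, and at 62.2 against 62.8 RPKM with dexamethasone. The table gives 1 value per gene, so the splice forms of Lamp2 were not separated.

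Other membrane members were level or near the floor. Mcoln1, the lysosomal calcium channel gene, had 14.2, 12.8 and 13.4 CPM in the controls against 10.4, 13.7 and 14.3 CPM with dexamethasone, where replicate 1 lay below the rest (log2 -0.08 ± 0.15, adjusted p = 0.48). Lamp3 had 0.225 to 0.337 CPM in the controls and 0.394 to 0.687 CPM with dexamethasone and did not pass (log2 0.92, adjusted p = 0.054), although it did with library size alone (0.0445) and without dexamethasone replicate 3 (0.0449). It passed the low-count filter through the dexamethasone group alone. Lamp5 had 0 counts in all libraries.

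**Figure D3:**
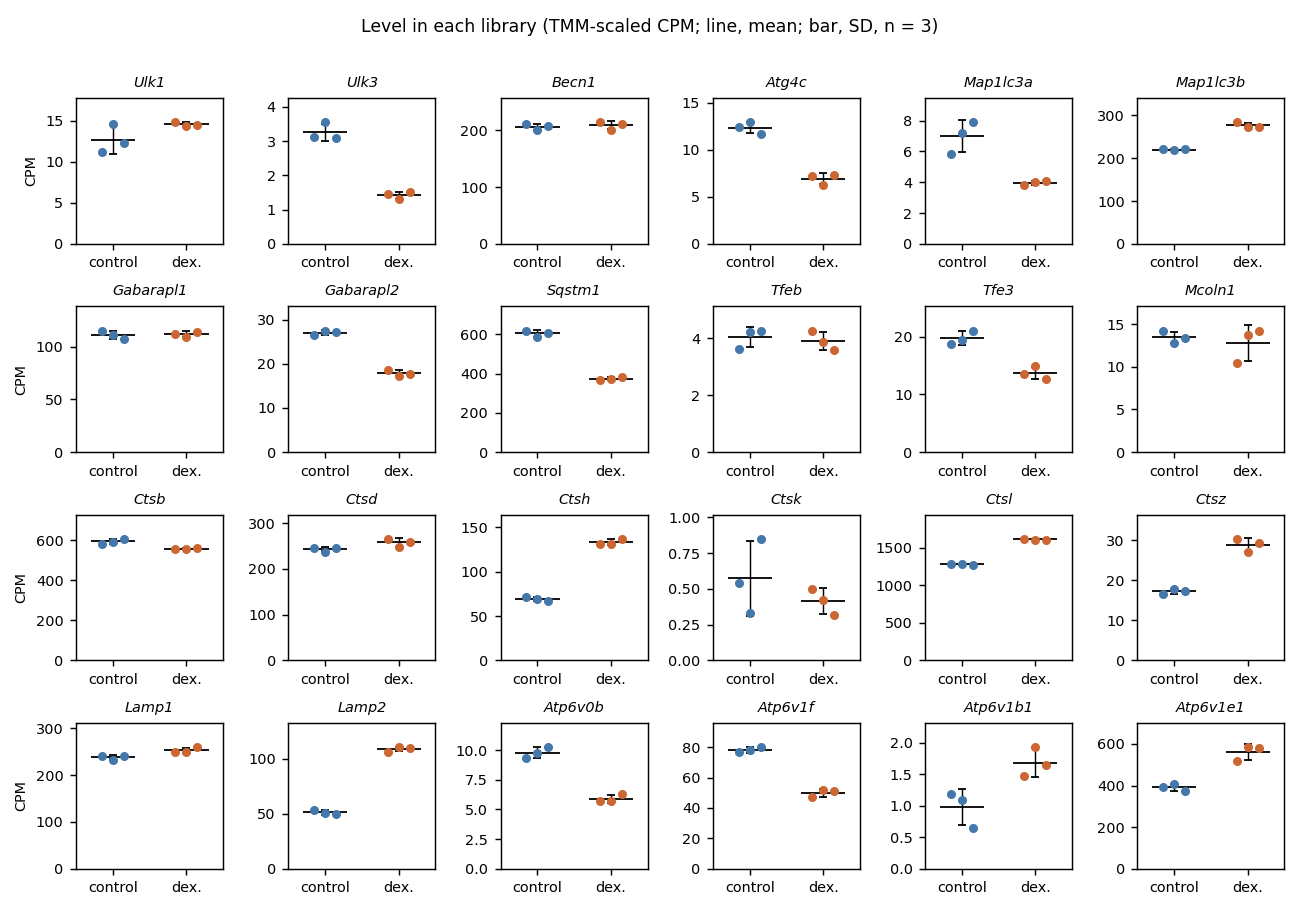
TMM-scaled CPM (y axes start at 0) of 24 genes of the set in the 3 control and 3 dexamethasone libraries (x axes); points are libraries, lines the mean and bars the SD. Lamp2, Ctsh and Ctsz sit higher in every dexamethasone library and Ulk3, Atg4c, Map1lc3a and Sqstm1 lower, while Becn1, Gabarapl1, Tfeb and Mcoln1 overlap between the groups.

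The V-ATPase pump has a soluble V1 sector that splits ATP and a V0 sector in the membrane that carries protons. Its 20 tested subunit genes split into 6 rises, 8 falls and 6 that missed the threshold. The 70% called lay near the 64.0% of all tested genes, of which 32.3% rose and 31.7% fell. None of the 20 passed edgeR's test against a fold change of 1.5, which 20.0% of all tested genes passed. In that test 3 (Atp6v0b, Atp6v1f and Atp6v1e2) had an unadjusted p below 0.05. The median log2 change of the 20 was -0.06. With counts summed per length, the V1 genes stood at 991 ± 6.45 RPKM in the controls and 981 ± 37.2 RPKM with dexamethasone, and the V0 genes at 109 ± 3.04 and 96.9 ± 2.76 RPKM (SD, n = 3).

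Within V1, the subunits of the stalk moved in different directions. Atp6v1e1 (chromosome 4, 153351421 to 153373649), the broadly used form of stalk subunit E, rose from 393, 406 and 376 to 517, 584 and 581 CPM (log2 0.52 ± 0.066, adjusted p = 1.1e-06). Atp6v1g1, the G subunit that pairs with E in the stalk, fell from 383, 385 and 390 to 269, 275 and 282 CPM (log2 -0.49 ± 0.021, adjusted p = 7.9e-20). For each gene the groups did not overlap, but both calls were lost with the coefficient of variation set to 0.2. The adjusted p was then 0.0943 for Atp6v1e1 and 0.126 for Atp6v1g1. Per length, Atp6v1g1 led V1 in the controls, at 359 against 294 RPKM for Atp6v1e1, and Atp6v1e1 led with dexamethasone, at 421 against 257 RPKM. Atp6v1f (chromosome 4, 56744561 to 56747656), a subunit of the central rotor, fell from 76.5, 77.8 and 79.9 to 46.9, 51.8 and 51.2 CPM (log2 -0.64 ± 0.049, adjusted p = 6.2e-18). Atp6v1d, the other rotor subunit, rose from 161, 147 and 151 to 185, 182 and 184 CPM (log2 0.26 ± 0.039, adjusted p = 2.1e-09). Rotor genes thus lay on both sides, as did stalk genes.

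The catalytic subunit gene Atp6v1a was nearly level, at 77.2, 77.4 and 78.9 CPM in the controls against 75.2, 71.3 and 72.0 CPM with dexamethasone. Its fall (log2 -0.10, adjusted p = 0.024) was lost without control replicate 3 (0.0631), without dexamethasone replicate 2 (0.116) or 3 (0.0944), with library size alone (0.181) and by DESeq2 (0.0552). Its partner Atp6v1b2, the broadly used B subunit, did not pass (log2 -0.09, adjusted p = 0.20) except when control replicate 1 was left out (0.041). Atp6v1b1, the B form best known from kidney and inner ear, rose from 1.19, 1.09 and 0.650 to 1.47, 1.93 and 1.65 CPM (log2 0.78 ± 0.28, adjusted p = 0.0059), a call lost without control replicate 3 (0.061). It made up only 2.02% of the B subunit RPKM in the controls and 3.56% with dexamethasone. The peripheral subunits Atp6v1c1 (log2 -0.32) and Atp6v1h (log2 -0.27) fell.

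Rare V1 forms had few reads. Atp6v1e2, a form of subunit E known from testis, had 0.207, 0.355 and 0 CPM in the controls against 0.806, 0.454 and 0.296 CPM with dexamethasone, with overlap. Its rise (22 counts against 62, adjusted p = 0.031) was lost without control replicate 1 (0.0685) or 3 (0.139), without dexamethasone replicate 1 (0.194) or 2 (0.0557) and by DESeq2 (0.0868), and it passed the filter through the dexamethasone group alone. Atp6v1c2 and Atp6v1g2 did not pass (adjusted p = 0.22 and 0.92), and the latter overlaps Nfkbil1 over 157 bases. Atp6v1g3 had 0 counts. Atp6v1fnb, which the rule takes in by name but which is a neighbour of Atp6v1f and not a pump subunit, had 17 and 16 counts and was not tested.

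Within V0, the proteolipid genes, whose products form the rotating ring, were lower. Atp6v0b (chromosome 5, 136718352 to 136721379) fell from 9.31, 9.78 and 10.2 to 5.69, 5.73 and 6.28 CPM, 1.66-fold lower with no overlap (log2 -0.73 ± 0.061, adjusted p = 2.0e-08). Atp6v0c, the main ring subunit, fell from 57.0, 56.7 and 61.5 to 49.2, 45.7 and 46.1 CPM (log2 -0.31 ± 0.050, adjusted p = 6.0e-08). Subunits a and e, also in the membrane, did not follow: Atp6v0a1 rose from 70.0, 70.0 and 72.2 to 80.3, 75.9 and 79.9 CPM (log2 0.16), and Atp6v0e1 rose by 0.36. Atp6v0d1, which couples the ring to the rotor, fell by 0.13 on the log2 scale (adjusted p = 0.012), a call lost without dexamethasone replicate 2 (0.103) and with library size alone (0.0818), and it overlaps AC116220.2 over 273 bases.

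The remaining V0 forms did not pass or were not tested. Atp6v0a2 and Atp6v0e2 had log2 changes of 0.06 and -0.03. Atp6v0a4, the form of subunit a known from kidney, had 0.0778, 0.633 and 0.600 CPM in the controls, where replicate 1 held 3 of the 52 counts, against 0.663, 0.908 and 0.788 CPM (log2 0.83 ± 0.80, adjusted p = 0.076). It passed the low-count filter through the dexamethasone group alone, where it is high, so the adjusted p below 0.05 found without control replicate 2 (0.0323), with the replicate number as a block (0.0334) and with limma-voom (0.0267) carry no weight. Atp6v0d2, the osteoclast form of subunit d, was at 0 in every control and had 5 counts with dexamethasone, which is under the floor of 6 counts.

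**Figure D4:**
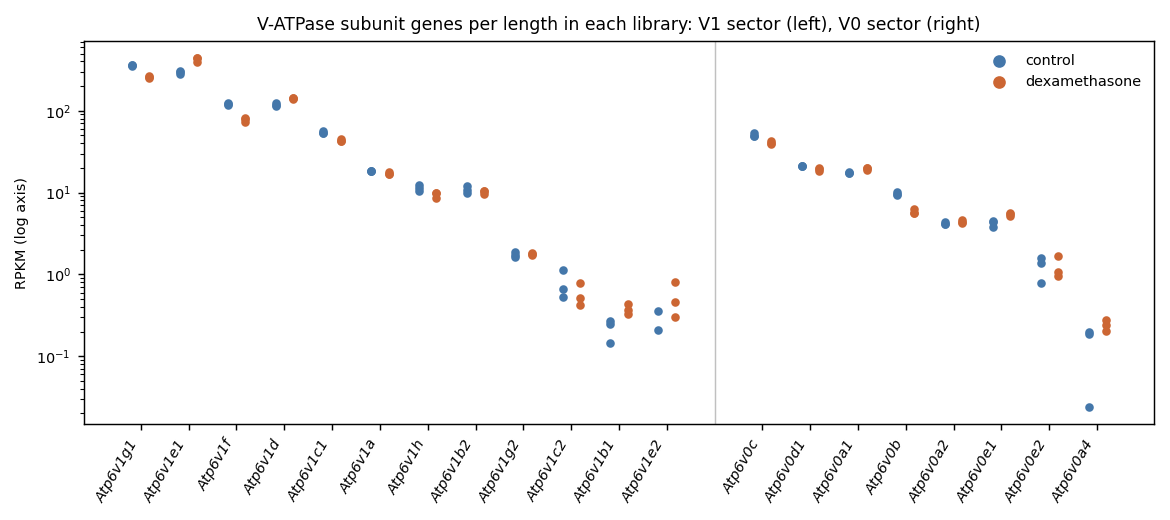
RPKM (log axis) of the 20 tested V-ATPase subunit genes in each control and dexamethasone library, V1 on the left and V0 on the right, each ordered by control level; a library with 0 counts (Atp6v1e2, control replicate 3) cannot be drawn. Atp6v1g1 and Atp6v1f lie lower and Atp6v1e1 higher with dexamethasone, and libraries of the rarest forms, Atp6v1e2 and Atp6v0a4 among them, scatter most.

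Pathway genes outside the naming rule were counted in 9 lists written from general knowledge, and each count stands against 64.0% of all tested genes called, 32.3% rising and 31.7% falling. None of the lists was tested against other genes. Fusion genes gave 4 rises and 9 falls among 19 tested, so that 68.4% were called, near the share over all genes. Rises were led by Stx17, the autophagosome SNARE, and its partner Snap29 (log2 0.51 and 0.38), while Tecpr1, a tether between autophagosome and lysosome, fell from 75.2 ± 2.68 to 32.0 ± 1.84 CPM (SD, n = 3; log2 -1.23, adjusted p = 1.2e-26). Epg5, another tether, fell by 0.35. The list of other initiation genes gave 4 rises and 4 falls among 14 tested, with Rb1cc1, the large scaffold of the ULK complex, falling from 402 ± 9.13 to 285 ± 5.27 CPM (log2 -0.50, adjusted p = 4.5e-20). Kat5, an acetyltransferase that acts on ULK1, fell by 0.48, and Uvrag and Rubcn, which bind the beclin 1 complex, rose by 0.27 and 0.21.

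Regulators of nutrient sensing spanned a wider range of log2 changes than the set, from -1.88 (Sesn2) to 3.08 (Deptor), but the typical gene changed less. The median size of the log2 change in the list was 0.24, beside 0.31 over the set and 0.31 over all tested genes. In this list of mTORC1, AMPK and TFE relatives 11 rose and 12 fell among 30 tested, with a median log2 change of -0.04. Deptor, an inhibitor that binds mTOR, rose from 3.71 ± 0.753 to 31.4 ± 0.384 CPM (SD, n = 3; log2 3.08 ± 0.18, adjusted p = 3.6e-29). Sesn1, a sestrin that restrains mTORC1, rose from 6.90 ± 0.453 to 53.5 ± 0.773 CPM (log2 2.95 ± 0.055, adjusted p = 6.3e-36). Its relative Sesn2 fell from 115 ± 2.01 to 31.2 ± 1.58 CPM (log2 -1.88 ± 0.045, adjusted p = 1.5e-35). These 2 sestrins thus lay on opposite sides. Sesn3, the remaining one, changed little, from 66.2 ± 1.07 to 73.8 ± 3.65 CPM (log2 0.16, adjusted p = 7.1e-04). Mlst8, a subunit shared by both mTOR complexes, fell by 0.58 on the log2 scale.

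Soluble hydrolases other than cathepsins gave 21 rises and 10 falls among 45 tested, and the 68.9% called lay near the 64.0% of all tested genes. Their median log2 change was 0.20, beside -0.00 over all tested genes. Against a fold change of 1.5 in edgeR, 8 rose and 0 fell, with 0 falls also at an unadjusted p below 0.05; over all tested genes 1549 rose and 1278 fell in that test. Manba, which removes mannose from glycans, rose from 11.2 ± 0.785 to 19.8 ± 0.473 CPM (SD, n = 3; log2 0.82, adjusted p = 4.0e-13), and Hyal1, a hyaluronidase, from 3.74 ± 0.700 to 8.43 ± 0.870 CPM (log2 1.18). The falls were led by Neu1, a sialidase, and Acp2, an acid phosphatase (log2 -0.59 and -0.58).

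The list of lysosomal membrane genes outside the rule went both ways, with 10 rises and 12 falls among 28 tested. Cln6 (log2 0.76) and Tmem106b (log2 0.76) led the rises among genes of at least 5 CPM. Cln6 was placed in the list although its product is a membrane protein of the endoplasmic reticulum. Tmem63a, an ion channel, and Slc66a1, an exporter of basic amino acids, led the falls at that level (log2 -0.90 and -0.79). Rarer genes of the list fell further: Mcoln3, with 77 counts in the controls against 6 (log2 -3.60), Abcb9 (-1.02) and Cln3 (-0.96). Of the genes that sort enzymes to lysosomes, 5 rose and 4 fell among 14 tested. Igf2r, the large mannose 6-phosphate receptor, fell from 824 ± 4.27 to 329 ± 2.35 CPM (SD, n = 3; log2 -1.33 ± 0.0073, adjusted p = 1.5e-37), while Sort1, which encodes the alternative sorting receptor sortilin, rose from 9.58 ± 1.59 to 20.9 ± 1.22 CPM (log2 1.13). Snx1, a retromer-associated protein, rose by 0.54 and Gga3, an adaptor, fell by 0.24.

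V-ATPase genes that the rule leaves out, among them assembly factors and the third a subunit, gave 4 rises and 3 falls among 14 tested. Tcirg1, that a subunit (log2 0.34), and Oxr1 (log2 0.41) rose, and Tmem199, an assembly factor (log2 -0.50), and Dmxl1 (log2 -0.31) fell. Among the 3 tested inhibitors of cysteine cathepsins, Cst3, the secreted cystatin C, rose from 35.5 ± 2.95 to 192 ± 4.13 CPM (SD, n = 3; log2 2.43 ± 0.070, adjusted p = 4.4e-34). Cst6 fell from 14.5 ± 0.192 to 8.12 ± 0.262 CPM (log2 -0.84), and Cstb, the cytosolic stefin B, did not pass (log2 0.05, adjusted p = 0.56).

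**Figure D5:**
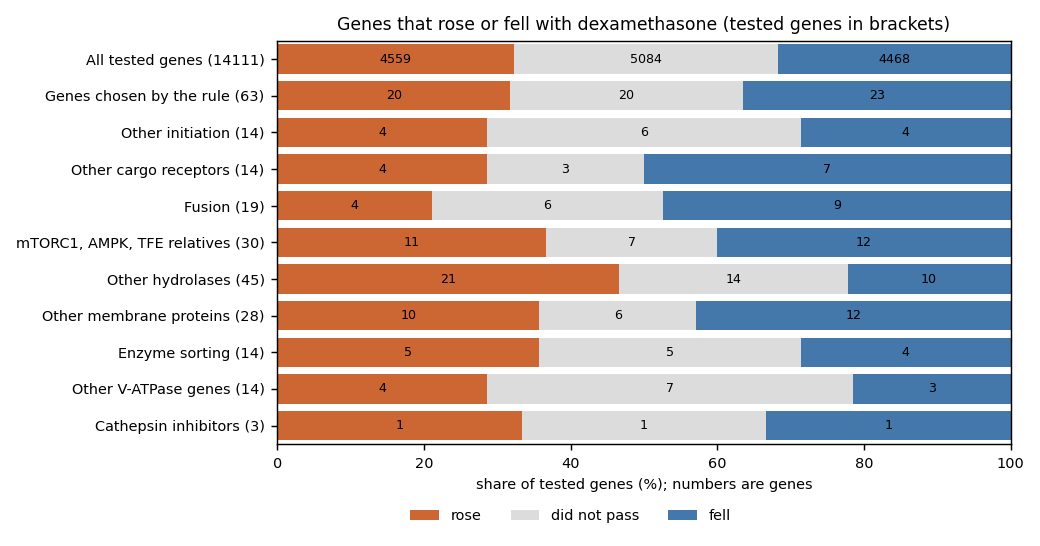
Share of tested genes that rose, did not pass or fell with dexamethasone (x axis, percent; numbers are genes) for all tested genes, the 63 tested genes of the set and 9 lists of other pathway genes (y axis, tested genes in brackets). All tested genes divide into 4559 rises and 4468 falls, the set into 20 and 23, and the other hydrolases into 21 and 10.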

How the data were processed

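RNA sequencing of 3 control and 3 dexamethasone samples was analysed from a single deposited table of read counts per gene, with exon positions and lengths, per the file headers. What aligner and counter the authors ran, with which strand setting and which treatment of reads shared by genes, was not given in the sources used here. The submitters' processing notes name mm10, a mouse build, but 75 of the 76 genes of the set were found by symbol, on the same chromosome, in a rat gene table (assembly GRCr8). Coordinates are those of the deposited table, whose rat build is not named.

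Titles put the samples in groups, since the treatment tag reads the same for all 6. Genes were filtered with filterByExpr (63 of 76 kept, 59 of them with all libraries of both groups above its minimum, and 14111 of 30211 overall), scaled by TMM and fitted without covariates in R 4.3.3 by the robust quasi-likelihood method of edgeR 4.0.16 (two-sided), with Benjamini-Hochberg adjustment over all tested genes. Standard errors came from log2 CPM (prior count 2) between replicates, and RPKM is TMM-scaled CPM per kilobase of exon. Low counts came mostly in even numbers (70.7% to 73.2% of values from 1 to 10 by library), so 6 counts (3 read pairs) served as floor, or 0.142 to 0.170 CPM. It covers counting error only. Alternatives were other scalings, no filter, DESeq2 1.42.0, limma-voom (limma 3.58.1), a test against a fold change of 1.5, a coefficient of variation set to 0.2, a replicate block and leaving out each library. The scripts were tested on simulated data.

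The genes and lists were chosen with earlier results of these data known. Per-library values are given for 14 fixed genes (Becn1, Sqstm1, Tfeb, Tfe3, Mcoln1, Ulk1, Map1lc3b, Gabarapl1, Lamp1, Lamp2, Ctsb, Ctsd, Ctsk, Ctsl) and for other genes of the set called with at least a 1.5-fold change and a mean of at least 1 CPM. They are also given for many more genes of the set, Atg101, Atg12, Gabarap and Atp6v1e1 among them, that were chosen after their values were seen. From each of the 9 lists of other pathway genes (not the marker lists), the called genes of at least 5 CPM with the strongest change are named, 2 per direction. Sesn3, Bnip3l and Cstb are named in addition.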

Additional observations from a re-analysis of the deposited data

How the results depend on the processing

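No gene of the set reversed direction while called under any of the 14 alternatives. Of the 43 called, 33 kept their call and direction under 12 of them, which were other scalings, no filter, DESeq2, limma-voom, the replicate block and each library left out. The 2 stricter settings moved the counts. Against a fold change of 1.5, 8 genes of the set were called (3 up, 5 down), and all tested genes called numbered 2827. With the coefficient of variation set to 0.2, to allow for replicates that may be technical, 13 were called (5 up, 8 down) and 3693 of all. The 13 were Lamp2, Ctsh, Ctsz, Atp6v1b1 and Atp6v1e2, which rose, and Sqstm1, Ulk3, Atg4c, Map1lc3a, Gabarapl2, Atp6v0b, Atp6v1f and Ctsw, which fell. The other 30 calls were lost, among them those of Atp6v1g1 (adjusted p = 0.126), Atp6v1e1 (0.0943), Ctsl (0.354), Map1lc3b (0.359) and Tfe3 (0.0946). Outside the set, Rb1cc1 also lost its call (0.116). Leaving out 1 library at a time gave 38 to 43 called genes of the set, 16 to 20 rises and 20 to 25 falls, and 8570 to 8757 of all genes. With the replicate number as a block, 45 were called (21 up, 24 down) and 8991 of all. Equal numbers showed no shared deviation from the group means: the same-numbered correlations were 0.0026, -0.0078 and 0.020. Control replicate 1 correlated best with dexamethasone replicate 2 (0.031). With replicates this close, such values cannot show whether equal numbers shared a culture or animal. Depth limits the rare forms, of which 13 were not tested.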
